A study of Mus musculus with 20 samples.

Results

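The 10 nuclear genes described here encode proteins that transcribe or copy mitochondrial DNA, or that switch on the genes that do so, and they were measured in the gastrocnemius of mice. They were Tfam, Polrmt, Tfb1m and Tfb2m of the transcription machinery, Polg, Polg2 and Twnk of the replication machinery, and the nuclear factors Nrf1, Gabpa and Gabpb1. They were taken by name, each through its brightest probe set with a single gene symbol, and all 10 were found among the 19938 genes measured. The muscle, a fast calf muscle, came from adult male C57BL/6 mice, and 20 Affymetrix Gene 1.0 ST arrays fell into 4 groups of 5. NCoR1-MKO lack the nuclear receptor corepressor NCoR1 in muscle only, and CON are their controls. PGC-1alpha-mTg carry a muscle-specific transgene for the coactivator PGC-1alpha, and WT are their wild-type controls. The promoters behind the deletion and the transgene, the alleles carried by CON and the exact ages are not given in the sources used here. Nor do the labels say outright that each array is a separate mouse. The p-values here reflect how far arrays scatter within groups, pooled over the 4 groups, and part of that scatter may be technical.

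Mitochondria hold their own small circular genome, but the proteins that read and copy it are imported after being made from nuclear genes. TFAM bends and packs mitochondrial DNA and marks its promoters, TFB2M opens the promoter, and POLRMT is the RNA polymerase, which also makes primers for replication. At the replication fork the helicase Twinkle (Twnk) unwinds the DNA ahead of polymerase gamma, made of a catalytic subunit (Polg) and an accessory subunit (Polg2). The nuclear respiratory factors NRF1 and NRF2 (a complex of GABP alpha, from Gabpa, and GABP beta, from Gabpb1) bind promoters of many such genes, and PGC-1alpha is known as a coactivator of both. NCoR1 represses genes through nuclear receptors, among them the estrogen-related receptors that PGC-1alpha activates.

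The promoters of 5 of these genes are shown because they belong to the members that were called in the tests below (Tfam, Tfb2m, Twnk) and to the polymerases of transcription and replication that were not (Polrmt, Polg). Each runs from 250 bases before to 50 bases after a RefSeq start of mouse build GRCm38.p6, in the sense of the gene, and capitals mark a match to the core of an NRF1 motif (GCGCANGCG) or a GABP motif (CCGGAAGT) on either strand. The positions are chr10:71237995-71238294 on the minus strand for Tfam, chr1:179546227-179546526 on the minus strand for Tfb2m and chr19:45006308-45006607 on the plus strand for the second of the starts of Twnk. Polrmt lies at chr10:79746532-79746831 on the minus strand and Polg at chr7:79466224-79466523 on the minus strand.
Tfam: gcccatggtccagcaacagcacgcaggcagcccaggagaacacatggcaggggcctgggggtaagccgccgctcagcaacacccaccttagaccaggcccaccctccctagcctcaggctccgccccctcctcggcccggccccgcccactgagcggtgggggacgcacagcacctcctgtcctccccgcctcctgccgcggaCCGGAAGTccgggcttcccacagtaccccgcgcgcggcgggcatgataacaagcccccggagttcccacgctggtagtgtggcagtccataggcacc
Tfb2m: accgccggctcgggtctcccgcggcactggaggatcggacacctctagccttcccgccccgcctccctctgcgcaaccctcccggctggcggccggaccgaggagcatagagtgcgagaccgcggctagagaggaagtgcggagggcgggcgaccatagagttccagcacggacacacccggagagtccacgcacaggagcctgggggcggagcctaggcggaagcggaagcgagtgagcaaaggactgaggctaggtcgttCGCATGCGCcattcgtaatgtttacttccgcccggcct
Twnk: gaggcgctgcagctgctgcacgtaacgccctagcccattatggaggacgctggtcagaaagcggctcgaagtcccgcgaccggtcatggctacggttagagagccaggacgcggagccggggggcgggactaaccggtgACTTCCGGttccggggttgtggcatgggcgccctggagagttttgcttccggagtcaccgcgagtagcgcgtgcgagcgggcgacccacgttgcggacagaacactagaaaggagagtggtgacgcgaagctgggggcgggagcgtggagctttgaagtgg
Polrmt: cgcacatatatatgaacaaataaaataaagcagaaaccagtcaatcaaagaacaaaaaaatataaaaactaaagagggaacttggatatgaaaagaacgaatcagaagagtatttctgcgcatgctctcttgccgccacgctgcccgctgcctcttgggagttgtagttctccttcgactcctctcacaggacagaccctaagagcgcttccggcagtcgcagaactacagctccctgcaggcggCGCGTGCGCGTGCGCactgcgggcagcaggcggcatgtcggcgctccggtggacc
Polg: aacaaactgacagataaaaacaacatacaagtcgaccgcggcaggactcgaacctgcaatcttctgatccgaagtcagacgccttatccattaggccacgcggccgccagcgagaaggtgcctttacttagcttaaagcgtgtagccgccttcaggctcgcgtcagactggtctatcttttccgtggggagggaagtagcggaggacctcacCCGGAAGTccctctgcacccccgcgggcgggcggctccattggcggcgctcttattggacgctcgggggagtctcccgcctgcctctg
A GABP match stood 47 bases before the start of Tfam, 38 before that of Polg and 111 before the second start of Twnk, there on the reverse strand. The first start of Twnk had no match. Tfb2m had an NRF1 match 12 bases after its start, and Polrmt had 2 overlapping NRF1 matches at its start.

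RefSeq gave 13 promoters for the 10 genes. The NRF1 core was found in 3 of these 13, against 6.25% of all 32851 promoters in the RefSeq table and 9.25% of those of the genes tested. The GABP core was found in 3 of 13, against 3.89% of all promoters and 5.41% of those of the genes tested. The remaining NRF1 match was in a promoter of Gabpb1. A YY1 core (AANATGGCG, in 2.38% of all promoters) was found in the promoter of Gabpa, and the ERR core (TNAAGGTCA, in 1.28%) in none of the 13. Tfb1m, Polg2 and Nrf1 had no match to any of the 4 motifs, which were searched on both strands. Matches were thus present in promoters of genes that changed and of genes that did not pass the test, and a match is a description of letters, not of binding.

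RMA gave a log2 expression value for each of 35556 probe sets on every array. Array medians lay between 6.03 and 6.08 in NCoR1-MKO and CON and between 5.84 and 5.91 in PGC-1alpha-mTg and WT. The distributions of the arrays were close within each of these cohorts and further apart between them, so levels were compared only within a cohort. Within groups the lowest correlation between arrays was 0.987 in PGC-1alpha-mTg and at least 0.994 in the other groups. The lowest values in PGC-1alpha-mTg (0.987 and 0.988) were those of replicate 5 with replicates 3 and 2, and members' results are given below without these arrays where they change. The check of the transgene was clear: Ppargc1a, which encodes PGC-1alpha, was 1.83 ± 0.07 higher in PGC-1alpha-mTg (log2 change ± SE, limma, adjusted p = 9.882e-15). Ncor1 was not analysed here. Markers of skeletal muscle fibre averaged 13.28 to 13.32 per array in NCoR1-MKO, against 13.25 to 13.27 in CON, and 12.73 to 12.76 in PGC-1alpha-mTg, against 12.74 to 12.78 in WT, so by level the tissue carried its label. The NCoR1-MKO means lay above all those in CON. Of these 10 markers limma called 1 higher in NCoR1-MKO (0 to 1 with 1 array left out), and 2 higher and 3 lower in PGC-1alpha-mTg. Over all genes 2.63% and 28% were called.

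Of the 10 genes, 1 was called higher in NCoR1-MKO and 3 were called higher in PGC-1alpha-mTg, and no member was called lower in either model (adjusted p under 0.05, limma with Benjamini-Hochberg adjustment over all genes). The member higher in NCoR1-MKO was Tfam, and those higher in PGC-1alpha-mTg were Tfam, Tfb2m and Twnk. Over all 19938 genes, 2.63% were called in NCoR1-MKO against CON (1.31% higher, 1.32% lower), and 28% in PGC-1alpha-mTg against WT (11.9% higher, 16.1% lower). The counts of 1 of 10 and 3 of 10 thus stand on very different backgrounds, and 3 of 10 is near the share of all genes called in either direction. At an unadjusted p under 0.05, 2 members were higher and 0 lower in NCoR1-MKO, and 3 were higher and 1 was lower in PGC-1alpha-mTg. Many genes pass that threshold. By limma's p, Tfb2m (0.04116) ranked 2125 of 19938 genes in NCoR1-MKO, and Gabpb1 (0.01666) ranked 5776 in PGC-1alpha-mTg. Unadjusted counts, here and in the lists below, are therefore not read as an excess over all genes. The median log2 change of the 10 was 0.05 in NCoR1-MKO and -0.02 in PGC-1alpha-mTg, beside 0.001 and 0.018 over all genes. Changes ran from -0.1 to 0.25 in NCoR1-MKO and from -0.15 to 0.55 in PGC-1alpha-mTg. The median SD of a member within a group was 0.076 in NCoR1-MKO, 0.0664 in CON, 0.0871 in PGC-1alpha-mTg and 0.0635 in WT.

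**Figure D1:**
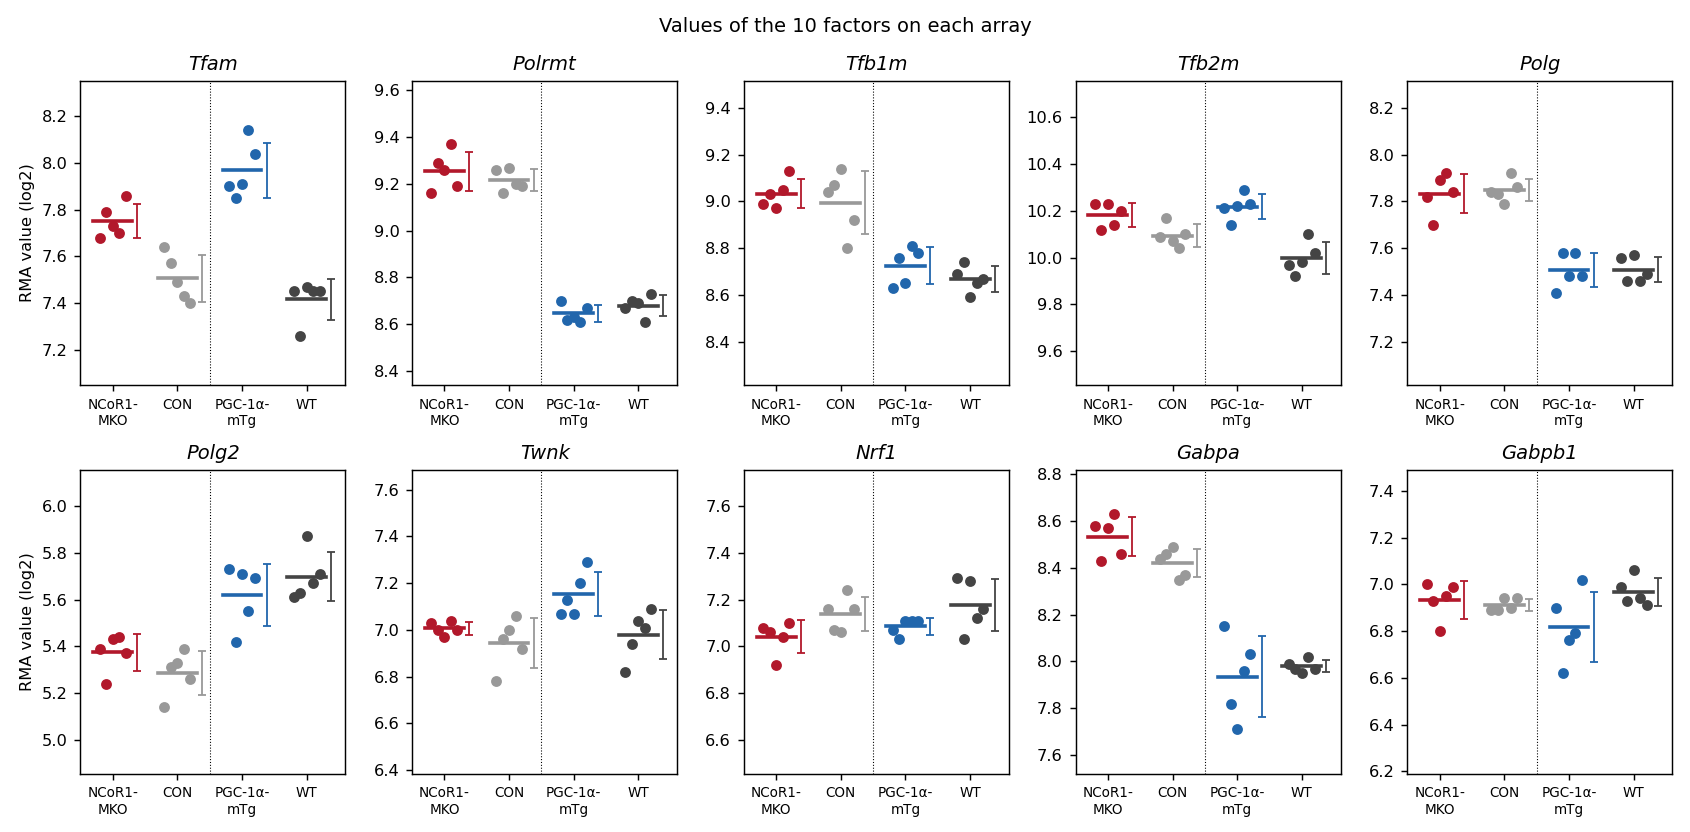
Expression of the 10 genes on each of the 20 arrays (log2 RMA value, 1 panel per gene with its own axis). Points are arrays, horizontal lines are group means and the error bars beside them are SDs of 5 arrays; the arrays of Tfam in NCoR1-MKO (7.68 to 7.86) lie above those in CON (7.4 to 7.64), and those in PGC-1alpha-mTg (7.85 to 8.14) above those in WT (7.26 to 7.47).

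Tfam, the packaging protein and transcription factor of mitochondrial DNA, was the member that changed in both models. Its log2 values were 7.68, 7.79, 7.73, 7.7 and 7.86 in NCoR1-MKO, against 7.64, 7.57, 7.49, 7.43 and 7.4 in CON. All NCoR1-MKO arrays lay above all CON arrays. The means were 7.75 ± 0.0737 in NCoR1-MKO and 7.51 ± 0.0979 in CON (SD, n = 5 each), a log2 change of 0.25 ± 0.06 (SE), or 18.7% more signal, with a limma adjusted p of 0.025. Over all genes, 2.21% had every NCoR1-MKO array above every CON array, and 1.96% had every one below. The call was lost when certain single arrays were left out. Without replicate 2 or 5 of NCoR1-MKO, or without replicate 3, 4 or 5 of CON, the change was 0.22 to 0.24. Its limma adjusted p was then 0.05987 to 0.07824. Without any other single array the call was kept.

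In the PGC-1alpha-mTg muscle Tfam read 7.9, 7.85, 7.91, 8.14 and 8.04, against 7.45, 7.26, 7.47, 7.45 and 7.45 in WT. Again no arrays of the groups overlapped, as for 8.72% of all genes in this direction and 11.2% in the opposite one, and replicate 2 of WT was the lowest of its group. The means were 7.97 ± 0.118 in PGC-1alpha-mTg and 7.42 ± 0.0866 in WT (SD, n = 5 each). The log2 change was 0.55 ± 0.06, or 46.4% more signal (limma adjusted p = 1.898e-07), and it stayed between 0.51 and 0.58 when any 1 array was left out. The effect was larger in PGC-1alpha-mTg than in NCoR1-MKO by 0.3 ± 0.08 (95% interval 0.13 to 0.48, limma adjusted p = 0.01617), and Tfam was the 1 member of 10 for which the difference of effects was called, beside 15.2% of all genes (6.66% higher and 8.5% lower).

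Tfb2m, the factor that opens mitochondrial promoters for the polymerase, followed in the transgenic muscle. It read 10.21, 10.14, 10.22, 10.29 and 10.23 in PGC-1alpha-mTg, against 9.97, 9.92, 9.98, 10.1 and 10.02 in WT, with no overlap. Means of 10.22 ± 0.0563 in PGC-1alpha-mTg and 10 ± 0.0677 in WT (SD, n = 5 each) gave a change of 0.22 ± 0.04, or 16.6% more signal (limma adjusted p = 0.0003212). In NCoR1-MKO its values were 10.23, 10.12, 10.23, 10.14 and 10.2, against 10.09, 10.17, 10.07, 10.04 and 10.1 in CON. These groups overlapped through replicate 2 of CON, although all 5 NCoR1-MKO arrays lay above the CON mean, and the change of 0.09 ± 0.04 did not pass the test (limma adjusted p = 0.3861). The difference between the models, 0.13 ± 0.06, was not called either (limma adjusted p = 0.1751, 95% interval 0 to 0.25). A second probe set of Tfb2m differed from this one by at most 0.014 in any array, and both carry the same accessions, so they were not counted as separate measurements; whether they hold the same probes was not tested.

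The polymerase gene did not pass the test in either model. Polrmt, the mitochondrial RNA polymerase, read 9.16, 9.29, 9.26, 9.37 and 9.19 in NCoR1-MKO, against 9.26, 9.16, 9.27, 9.2 and 9.19 in CON. It read 8.7, 8.62, 8.63, 8.61 and 8.67 in PGC-1alpha-mTg, against 8.67, 8.7, 8.69, 8.61 and 8.73 in WT. The groups overlapped in both cohorts. The changes were 0.04 (95% interval -0.05 to 0.13) in NCoR1-MKO and -0.03 (-0.12 to 0.06) in PGC-1alpha-mTg, with limma adjusted p-values of 0.8655 and 0.6569, and both upper bounds lie below the change of Tfam in the same model.

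Tfb1m, a paralogue of Tfb2m that methylates mitochondrial ribosomal RNA, also overlapped between groups in both cohorts. It averaged 9.04 ± 0.0632 in NCoR1-MKO and 8.99 ± 0.137 in CON, and 8.73 ± 0.0791 in PGC-1alpha-mTg and 8.67 ± 0.0556 in WT (SD, n = 5 each). Neither difference passed the test, with changes of 0.04 (95% interval -0.08 to 0.16, limma adjusted p = 0.8943) in NCoR1-MKO and 0.06 (-0.06 to 0.18, limma adjusted p = 0.5021) in PGC-1alpha-mTg. Of the paralogous pair, Tfb2m was thus called in the transgenic muscle and Tfb1m was not, but the difference between these genes was not tested.

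**Figure D2:**
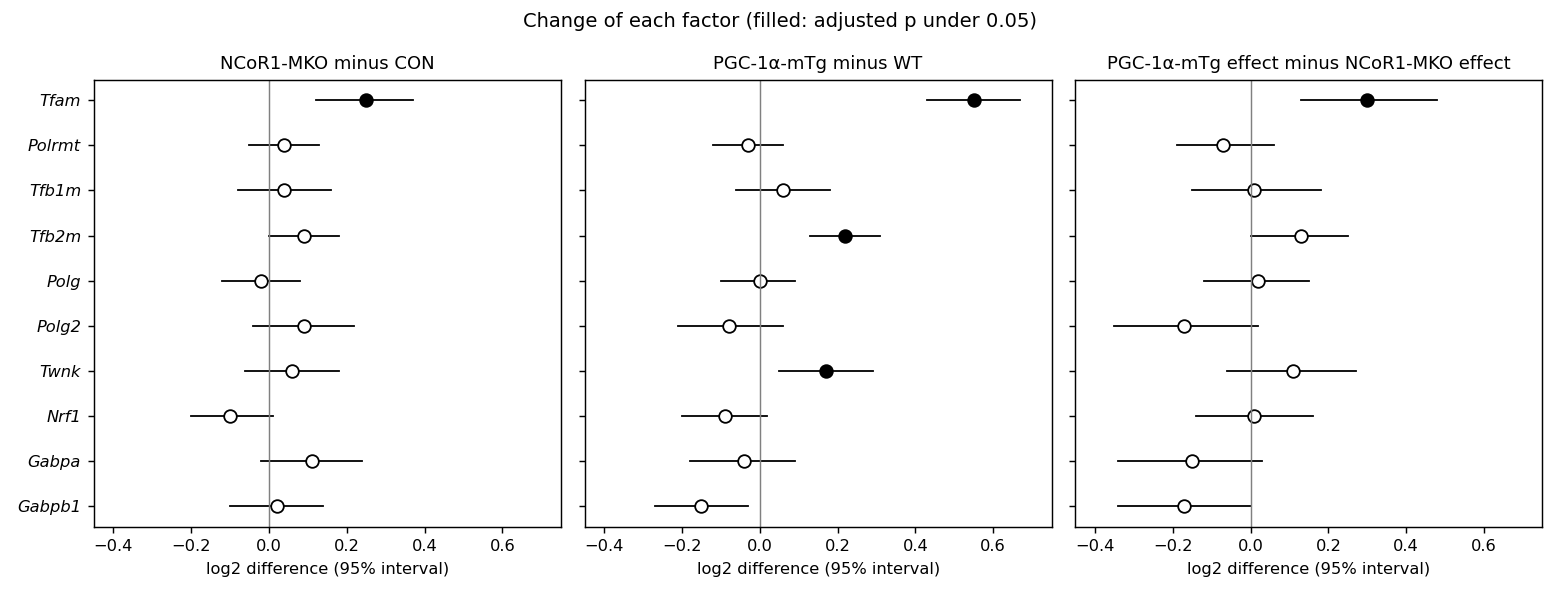
Log2 change of each of the 10 genes in NCoR1-MKO against CON, in PGC-1alpha-mTg against WT and as the difference of these effects, with 95% confidence intervals from limma (5 arrays per group). Filled points passed an adjusted p of 0.05: Tfam in all 3 panels, with 0.25, 0.55 and 0.3, and Tfb2m (0.22) and Twnk (0.17) in PGC-1alpha-mTg.

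Among the replication proteins the helicase gene moved and the polymerase genes did not pass the test. Twnk read 7.07, 7.13, 7.07, 7.2 and 7.29 in PGC-1alpha-mTg, against 6.82, 6.94, 7.04, 7.01 and 7.09 in WT. Replicate 5 of WT reached into the range of the transgenic arrays, while all 5 transgenic arrays lay above the WT mean. The means, 7.15 ± 0.095 in PGC-1alpha-mTg and 6.98 ± 0.104 in WT (SD, n = 5 each), differed by 0.17 ± 0.06, or 12.5% more signal (limma adjusted p = 0.02787). This call was lost without replicate 4 or 5 of PGC-1alpha-mTg or replicate 1 or 2 of WT (changes of 0.13 to 0.16, adjusted p 0.06052 to 0.09952). In NCoR1-MKO Twnk read 7.03, 7, 6.97, 7.04 and 7, against 6.78, 6.96, 7, 7.06 and 6.92 in CON. The NCoR1-MKO arrays sat inside the wider range of CON, and the change was 0.06 ± 0.06 (limma adjusted p = 0.8036).

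Polg, the catalytic subunit of polymerase gamma, read 7.41, 7.58, 7.48, 7.58 and 7.48 in PGC-1alpha-mTg, against 7.56, 7.46, 7.57, 7.46 and 7.49 in WT. Its mean was 7.51 in both groups, and the 95% interval of the change ran from -0.1 to 0.09 (limma adjusted p = 0.9721). In NCoR1-MKO it averaged 7.83 ± 0.0837, against 7.85 ± 0.05 in CON (SD, n = 5 each), a change of -0.02 (95% interval -0.12 to 0.08, limma adjusted p = 0.9635). Polg2, the accessory subunit that helps the polymerase stay on its template, was the dimmest of the 10 and the 1 member below a limit that drops the dimmest 40% of genes. It averaged 5.38 ± 0.0788 in NCoR1-MKO and 5.28 ± 0.0919 in CON, and 5.62 ± 0.133 in PGC-1alpha-mTg and 5.7 ± 0.101 in WT (SD, n = 5 each). The changes, 0.09 ± 0.06 in NCoR1-MKO and -0.08 ± 0.06 in PGC-1alpha-mTg, did not pass the test (limma adjusted p = 0.6882 and 0.4192), and at this brightness a small change may be missed.

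None of the 3 nuclear transcription factors was called in limma's test in either model, and 1 of the 3, Gabpb1, had an unadjusted p under 0.05 in PGC-1alpha-mTg. Nrf1, the activator of many nuclear genes for mitochondrial proteins, read 7.08, 7.06, 6.92, 7.04 and 7.1 in NCoR1-MKO, against 7.16, 7.07, 7.06, 7.24 and 7.16 in CON. In the other cohort it read 7.07, 7.03, 7.11, 7.11 and 7.11 in PGC-1alpha-mTg, against 7.29, 7.03, 7.28, 7.12 and 7.16 in WT. The groups overlapped in both cohorts, and 0 of 5 arrays of either model lay above the mean of their controls. The changes were close in size, -0.1 ± 0.05 in NCoR1-MKO and -0.09 ± 0.05 in PGC-1alpha-mTg (limma adjusted p = 0.5022 and 0.2144), with upper 95% bounds of 0.01 and 0.02. Neither interval holds a rise of the size measured for Tfam.

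Gabpa, the DNA-binding subunit of NRF2, read 8.58, 8.43, 8.57, 8.63 and 8.46 in NCoR1-MKO, against 8.44, 8.46, 8.49, 8.35 and 8.37 in CON. It read 8.15, 7.82, 7.71, 7.96 and 8.03 in PGC-1alpha-mTg, against 7.99, 7.97, 7.95, 8.02 and 7.97 in WT. The transgenic arrays were spread on both sides of a narrow WT group, with an SD of 0.173 in PGC-1alpha-mTg against 0.0268 in WT. The changes were 0.11 ± 0.06 in NCoR1-MKO (limma adjusted p = 0.5668) and -0.04 ± 0.06 in PGC-1alpha-mTg (limma adjusted p = 0.6615).

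Gabpb1, the subunit that carries the activation domain, read 6.9, 6.62, 6.76, 6.79 and 7.02 in PGC-1alpha-mTg, against 6.99, 6.93, 7.06, 6.94 and 6.91 in WT. Of the transgenic arrays 1 of 5 was above the WT mean, and replicate 2 was the lowest of all. The change was -0.15 ± 0.06 (95% interval -0.27 to -0.03) and just missed the threshold (limma adjusted p = 0.05751). It varied with the arrays used: without replicates 2 and 3 of PGC-1alpha-mTg together it was -0.06 (limma adjusted p = 0.5105), and without replicate 5 it was -0.2 (limma adjusted p = 0.005322). In NCoR1-MKO the mean was 6.93 ± 0.0783, against 6.91 ± 0.0272 in CON (SD, n = 5 each), a change of 0.02 ± 0.06 (limma adjusted p = 0.9636).

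By role, the median change in PGC-1alpha-mTg was 0.14 over the 4 transcription genes, 0 over the 3 replication genes and -0.09 over the 3 nuclear factors. In NCoR1-MKO the corresponding medians were 0.07, 0.06 and 0.02. Beyond Tfam, the differences between the effects of the models ran from -0.17 to 0.13 and none was called. At an unadjusted p under 0.05 the difference was positive for 2 members, Tfam and Tfb2m, and negative for 1, Gabpb1. By limma's p for the difference, Gabpb1 (0.04716) ranked 5145 of 19938 genes.

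**Figure D3:**
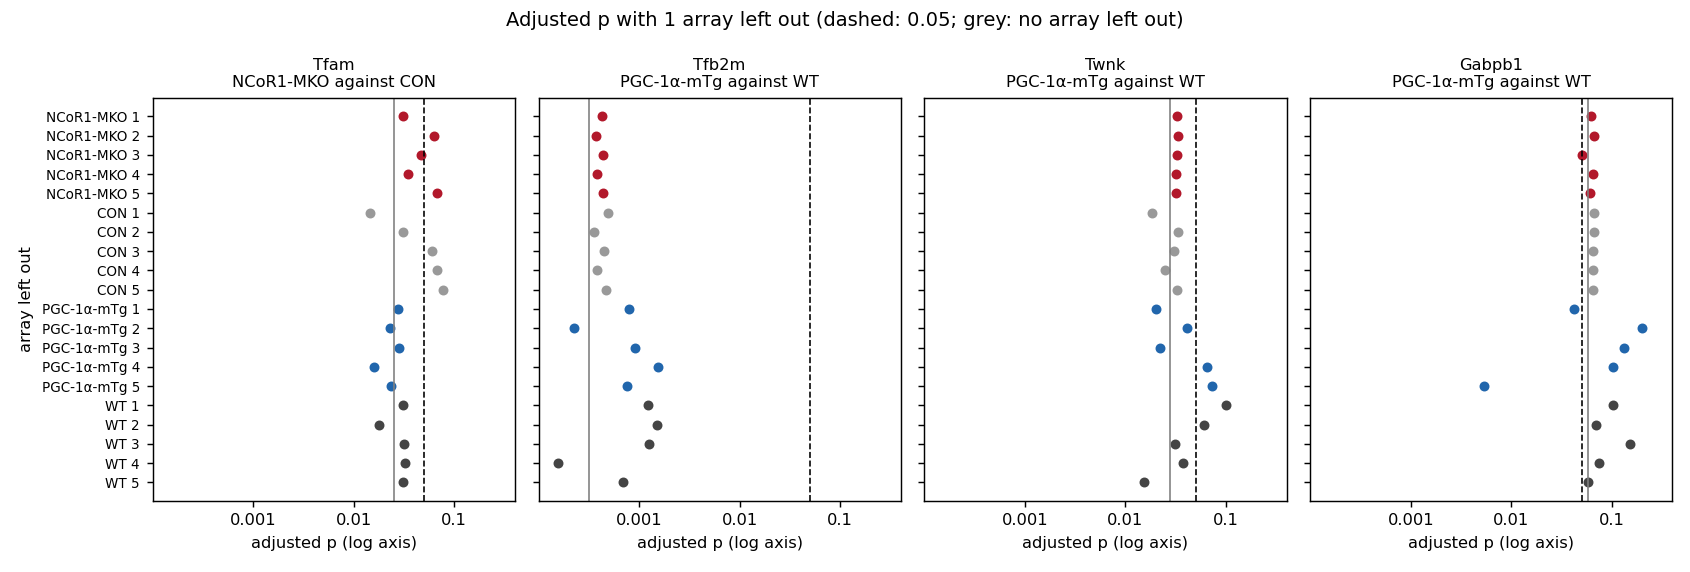
Adjusted p (log axis) of Tfam in NCoR1-MKO against CON and of Tfb2m, Twnk and Gabpb1 in PGC-1alpha-mTg against WT when each of the 20 arrays is left out in turn. Each point is 1 fit, the dashed line is 0.05 and the grey line is the fit of all arrays. Tfam in NCoR1-MKO passes 0.05 on the right in 5 of the 20 fits, Twnk does so without 4 arrays, and Tfb2m stays left of the line in all 20. Leaving out an array of the other cohort cannot alter a gene's change, and every lost call of Tfam and Twnk came with an array of its own cohort.

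Markers of other cells in the muscle were read beside these results. Beside their counts, 1.31% of all genes were called higher and 1.32% lower in NCoR1-MKO, and 11.9% and 16.1% in PGC-1alpha-mTg. The mean log2 value of 8 endothelial markers lay between 8.88 and 9.12 in NCoR1-MKO, against 8.65 and 8.89 in CON, and between 8.73 and 8.9 in PGC-1alpha-mTg, against 8.34 and 8.6 in WT. In NCoR1-MKO 1 of these 8 was called higher, and in PGC-1alpha-mTg 6 of 8 were. All 8 changes were positive in NCoR1-MKO, with 5 higher and 0 lower at an unadjusted p under 0.05. The 7 slow-fibre markers averaged 8.13 to 9.56 in NCoR1-MKO, against 9.15 to 10.26 in CON, with 2 of 7 called lower and all 7 lower at an unadjusted p under 0.05 (median -0.91), and 8.46 to 9.49 in PGC-1alpha-mTg, against 9.64 to 10.21 in WT, with 5 of 7 called lower (median -0.72). The slow-fibre count in NCoR1-MKO was 1 without replicate 5 of NCoR1-MKO or replicate 1 or 2 of CON, 4 without replicate 3 of NCoR1-MKO and 5 without replicate 5 of CON. That in PGC-1alpha-mTg was 3 without replicate 4 of PGC-1alpha-mTg or replicate 1 of WT. The endothelial count in NCoR1-MKO was 0 without replicate 1 of NCoR1-MKO or replicate 3 of CON. These lists moved in the same muscles as Tfam, and their part in its change was not tested. In whole muscle, fewer cells of a type and less RNA per cell cannot be told apart.

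Fibroblast, nerve and blood markers also moved in the transgenic cohort. In PGC-1alpha-mTg all 7 fibroblast markers were negative (median -0.24; 2 called lower, 4 lower at an unadjusted p under 0.05), as were all 4 nerve markers (median -0.16; 1 called lower), and all 3 blood markers were positive (median 0.15; 0 called by limma, 1 higher at an unadjusted p under 0.05). These medians are of the size of the changes of Tfb2m and Twnk. The array means of the nerve list lay between 7.22 and 7.32 in PGC-1alpha-mTg, against 7.33 and 7.55 in WT, and those of the blood list between 6.5 and 6.64 in PGC-1alpha-mTg, against 6.35 and 6.46 in WT, without overlap in either. The fibroblast list averaged 8.69 to 8.93 in PGC-1alpha-mTg, against 8.84 to 9.21 in WT. Of the remaining lists, 1 of 6 adipocyte markers was called higher in PGC-1alpha-mTg and 0 of 7 macrophage markers were called, with 0 at an unadjusted p under 0.05. In NCoR1-MKO limma called 0 markers of macrophages, adipocytes, fibroblasts, nerve or blood, 1 of them (a fibroblast marker) was higher at an unadjusted p under 0.05, and the blood list averaged 6.68 to 7.04 in NCoR1-MKO, against 6.61 to 7.87 in CON. The part of these cells in the members' values was not tested.

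Genes that work beside the 10 on mitochondrial DNA were then read, in lists by role. For these and all following lists, 1.31% of all genes were called higher and 1.32% lower in NCoR1-MKO. In PGC-1alpha-mTg the shares were 11.9% and 16.1%. Of 16 other replication and repair genes, 1 was higher and 0 lower in NCoR1-MKO, and 3 were higher and 2 lower in PGC-1alpha-mTg, with medians of 0.02 and -0.05. Taken in either direction, the count in PGC-1alpha-mTg is near the 28% of all genes called there. Top1mt, the mitochondrial topoisomerase that relaxes the DNA during transcription, was the gene called in NCoR1-MKO, with means of 8.53 ± 0.071 in NCoR1-MKO and 8.29 ± 0.036 in CON (SD, n = 5 each). Its change was 0.24 ± 0.05 in NCoR1-MKO (limma adjusted p = 0.007042). In the transgenic cohort it averaged 8.07 in both PGC-1alpha-mTg and WT, and the difference of the effects, -0.24, was called (limma adjusted p = 0.0224). Top1mt thus ran opposite to Tfam in its order between the models.

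In PGC-1alpha-mTg the replication and repair genes that rose were Endog (0.87 ± 0.06), a mitochondrial nuclease, Ung (0.69 ± 0.08), the glycosylase that removes uracil from DNA, and Dna2 (0.24 ± 0.05), a nuclease and helicase. Lig3, the DNA ligase of mitochondria, fell by 0.46 on the log2 scale (limma adjusted p = 4.187e-07), and Apex1, an endonuclease of base excision repair, fell by 0.18. Not called among the 16 were Ssbp1, the single-stranded DNA binding protein, at 0.03, Mgme1, a nuclease that trims replicating ends, at -0.09, and the primase-polymerase Primpol at -0.06. The change of Twnk, 0.17, was numerically below those of Endog, Ung and Dna2, which was not tested.

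Of 6 measured genes for elongation and termination of mitochondrial transcription, 5 were higher and 0 lower in PGC-1alpha-mTg, with a median of 0.41. The largest changes were those of Mterf2, a member of the termination factor family (0.87 ± 0.09), Mrpl12, a ribosomal protein reported to bind POLRMT (0.71 ± 0.05), and Nsun4, a methyltransferase of mitochondrial ribosomal RNA (0.47 ± 0.05). The log2 changes of Mterf2 and Mrpl12 were above the 0.55 of Tfam, though no test set the genes against each other. In NCoR1-MKO 0 of the 6 were called by limma, with 2 higher at an unadjusted p under 0.05 and a median of 0.09. The lowest p there belonged to the elongation factor gene Tefm, with 0.17 ± 0.05 (limma adjusted p = 0.06314), beside 0.35 in PGC-1alpha-mTg.

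Of 12 genes that supply nucleotides to mitochondria, 5 rose and 0 fell in PGC-1alpha-mTg (median 0.15), and 2 rose and 0 fell in NCoR1-MKO (median 0.08). Both subunits of the ADP-forming succinyl-CoA synthetase, an enzyme of the citric acid cycle needed for mitochondrial DNA upkeep, were called higher in both models. Sucla2 changed by 0.59 ± 0.04 in PGC-1alpha-mTg and by 0.28 ± 0.04 in NCoR1-MKO, and Suclg1 by 0.71 ± 0.04 and 0.15 ± 0.04. Samhd1, which breaks down deoxynucleotides, rose by 0.28 ± 0.05 in PGC-1alpha-mTg. The count in NCoR1-MKO was 1 without replicate 1, 3 or 5 of NCoR1-MKO or replicate 2, 3 or 5 of CON, with arrays centred, and in a fit of the 10 arrays alone. The count in PGC-1alpha-mTg was 3 without replicate 2, 3 or 4 of WT, and 3 when arrays were centred on their medians. The classic mitochondrial kinases of this list, Tk2 and Dguok, and the ribonucleotide reductase subunit Rrm2b stood at -0.08, 0.1 and 0 in PGC-1alpha-mTg and were not called.

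Of 7 nucleoid and matrix quality genes, 5 were higher and 0 lower in PGC-1alpha-mTg (median 0.44). They included Atad3a, a membrane ATPase tied to nucleoids (0.7 ± 0.07), and the matrix chaperones Hspa9 (0.61 ± 0.04) and Hspd1 (0.5 ± 0.06). Lonp1, the protease known to degrade TFAM, was not called in either model, with 0.12 in PGC-1alpha-mTg and 0.1 in NCoR1-MKO (limma adjusted p = 0.1311 and 0.5192). In NCoR1-MKO 0 of the 7 were called by limma, 3 were higher at an unadjusted p under 0.05, and the median was 0.1. The gene with the lowest p there was Hspa9, with 0.13 ± 0.04 (limma adjusted p = 0.08774).

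Of 26 genes for processing and stability of mitochondrial RNA, 15 rose and 2 fell in PGC-1alpha-mTg (median 0.19). The count higher was 11 to 15 with 1 array left out, 13 with arrays centred and 17 after quantile normalization. Among those that rose were Ptcd2, a pentatricopeptide protein (0.77 ± 0.05), Supv3l1, the helicase of the RNA degradation complex (0.69 ± 0.05), Tbrg4, of the FASTK family (0.68 ± 0.04), and Lrpprc, which stabilises messenger RNA (0.62 ± 0.05). Rexo2, which clears short RNA, fell by 0.23 and Elac2, which cuts transfer RNA ends, fell by 0.17. In NCoR1-MKO 23 of the 26 changes were positive, beside 50.7% of all genes, with a median of 0.08. At an unadjusted p under 0.05, 9 were higher and 0 lower. Limma called 1 of the 26 higher and 0 lower. That gene was Ptcd3, a protein of the mitochondrial ribosome, with 0.28 ± 0.06 (limma adjusted p = 0.01144), and it lost its call in a fit of the 10 arrays of its cohort alone, where 0 of the 26 were called.

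**Figure D4:**
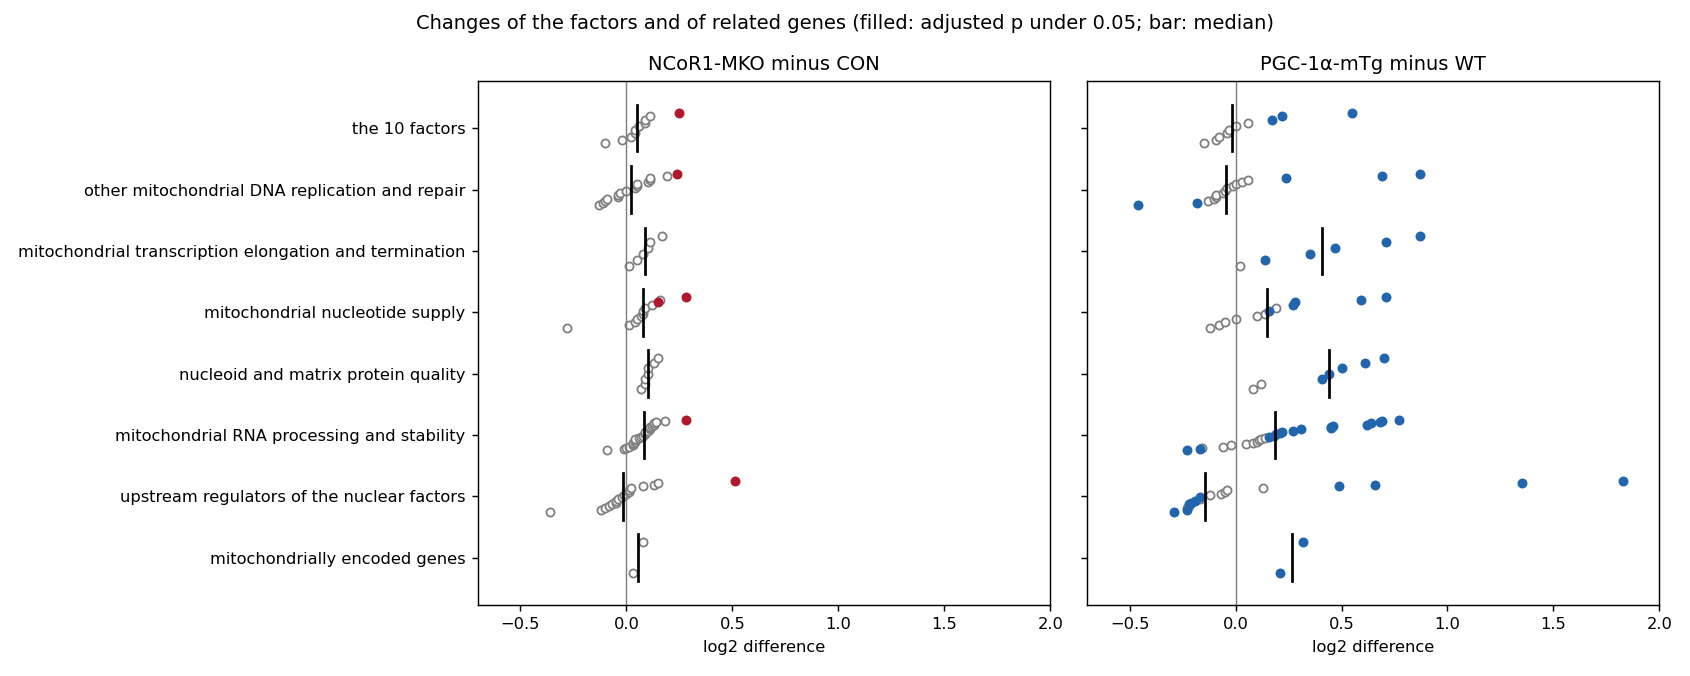
Log2 changes of the 10 genes and of the measured genes in each list around mitochondrial DNA, in NCoR1-MKO against CON and in PGC-1alpha-mTg against WT; each point is 1 gene, filled where its adjusted p passed 0.05, and bars are list medians. The lists for elongation and termination (median 0.41) and for nucleoid and matrix quality (0.44) lie furthest to the higher side in PGC-1alpha-mTg, and their medians in NCoR1-MKO are 0.09 and 0.1.

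Regulators above the nuclear factors split in direction. Of 18 in PGC-1alpha-mTg, 4 were higher and 6 lower (median -0.15). Apart from Ppargc1a, the largest rises were those of the estrogen-related receptors Esrrb (1.35 ± 0.08) and Esrra (0.66 ± 0.05). The 6 that fell were Max, Yy1, Hcfc1, Prkaa2, Sp1 and Creb1, by 0.17 to 0.29, and 3 were called lower without replicates 2 and 3 of PGC-1alpha-mTg together. Yy1 is a partner of PGC-1alpha at mitochondrial genes, and Hcfc1 binds GABP beta. In NCoR1-MKO 1 of the 18 was higher and 0 lower: Ppargc1b, which encodes the related coactivator PGC-1beta, with 0.51 ± 0.12 (limma adjusted p = 0.01927). Ppargc1b stood at -0.22 in PGC-1alpha-mTg (limma adjusted p = 0.1971), and the difference of effects was -0.73 (limma adjusted p = 0.004083). At an unadjusted p under 0.05, 2 of the 18 were higher and 1 lower in NCoR1-MKO. Limma called 1 lower in a fit of the 10 arrays alone and with the replicate block. Ppara averaged 8.08 ± 0.0943 in NCoR1-MKO and 8.44 ± 0.131 in CON (SD, n = 5 each). In the other cohort it averaged 8.53 ± 0.269 in PGC-1alpha-mTg and 8.04 ± 0.271 in WT.

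Of 15 genes of the mitochondrial genome itself that were sought, 2 had a probe set with a single symbol, and both were called higher in PGC-1alpha-mTg. ND3, a subunit of complex I, averaged 12.77 ± 0.0716 in PGC-1alpha-mTg and 12.45 ± 0.138 in WT, and COX2, a subunit of cytochrome c oxidase, averaged 12.91 ± 0.0772 in PGC-1alpha-mTg and 12.71 ± 0.13 in WT (SD, n = 5 each). The changes were 0.32 ± 0.06 (limma adjusted p = 0.000431) and 0.21 ± 0.05 (limma adjusted p = 0.004599), and 1 of the 2 was called without replicates 2 and 3 of PGC-1alpha-mTg. In NCoR1-MKO they stood at 0.03 and 0.08, and 0 of 2 were called by limma or had an unadjusted p under 0.05. Nuclear copies of mitochondrial DNA could share these probes, and their part in the signal was not tested.

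The genes nearest to a called member in their pattern were sought over the 20 arrays, as the smallest root mean square difference after each value had been set against the mean of its own controls. Nearest to Tfam were Vav2 (0.0636), a guanine exchange factor, Mrpl3 (0.08), a mitochondrial ribosomal protein, and Sucla2 (0.0801), beside a median of 0.324 over all genes. Nearest to Tfb2m were Vdac3 (0.0468), a pore of the outer membrane, Glrx2 (0.047), a mitochondrial glutaredoxin, and Atp5b (0.0483), of ATP synthase. Nearest to Twnk were Abhd8, Mfge8 and Kdm1a, at 0.058 to 0.0658 beside a median of 0.164. For genes with small changes this measure is close for many genes, so it is a description only.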

How the data were processed

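Gene expression was measured on 20 arrays, 1 per gastrocnemius sample. The deposited values are log2 values made by the authors with RMA, which corrects the background, normalizes between arrays and summarises probes, and with the Partek software, per the submitters' processing notes. Versions and the genome build of the arrays are not given in the sources used here. Of 35556 probe sets, 21789 had 1 gene symbol in the platform's gene table, and the brightest of these per gene left 19938 genes. RefSeq (GRCm38.p6) matched 21698 of the 21789, and unmatched ones were kept. Nothing was filtered for dimness. The 4 group means were fitted by limma 3.58.1 under R 4.3.3 (functions lmFit, contrasts.fit, eBayes; two-sided, Benjamini-Hochberg over all genes), with the contrasts NCoR1-MKO minus CON, PGC-1alpha-mTg minus WT, and the second minus the first. An array has no sequencing depth, so each group mean rests on 5 arrays. The spread of a gene was pooled over the 4 groups (20 arrays), so the SE and p-value of each model also draw on scatter in the other cohort. In simulated data 200 of 19938 genes were changed, 50 per size. Of those changed by 0.2, 38% were recovered for NCoR1-MKO and 42% for PGC-1alpha-mTg, and 98% and 96% at 0.5. In these data 176 genes were called for NCoR1-MKO and 177 for PGC-1alpha-mTg, against 525 and 5575 in the measured data. Recovery with as many genes called as in the measured data was not tested.

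The members, the lists, the motifs and the tests were chosen with earlier results of these data known. From each list the text names the 3 largest called changes per comparison, or the smallest p where none is called. Other list genes named (Dna2, Apex1, Ssbp1, Mgme1, Primpol, Tk2, Dguok, Rrm2b, Slc25a36, Lonp1, Lrpprc, Rexo2, Elac2, Max, Yy1, Hcfc1, Prkaa2, Sp1, Creb1, Ppara) were added for their roles or to complete a count after their values were seen. Alternatives were quantile normalization over all arrays, median centring, a filter on dim genes, the mean of probe sets, a fit of each comparison's 10 arrays alone, eBayes with a trend and robust moderation, a replicate block and leaving out each array. Leaving out replicates 2 and 3 of PGC-1alpha-mTg together was chosen after the data were seen.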

Additional observations from a re-analysis of the deposited data

Results flagged for a closer look

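Tfam in replicate 2 of WT had a log2 value of 7.26, while the other 4 WT arrays lay between 7.45 and 7.47. The gap made up 0.926 of the range of the group, above the limit of 0.71 for 5 samples. It was the 1 such value among 40 sets of 5 arrays (10 genes in 4 groups), and chance alone flags about 1 in 20. Without this array the change of Tfam in PGC-1alpha-mTg was 0.51 (limma adjusted p = 9.841e-07), and the difference between the effects in PGC-1alpha-mTg and NCoR1-MKO was 0.26 (limma adjusted p = 0.03459).

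The effect on Tfam differed between the models: the change in PGC-1alpha-mTg exceeded that in NCoR1-MKO by 0.3 on the log2 scale, by limma's test of the difference itself (adjusted p = 0.01617). The cohorts have separate controls and appear to have been normalized separately, so a difference between cohorts and a difference between models cannot be told apart here.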

How the results depend on the processing

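Over the members' changes and their alternatives, 782 values kept their direction and their side of the threshold, 11 lost a call, 5 gained one and 29 changed sign, none of these last from a called change. For a single model, leaving out an array of the other cohort cannot alter the change itself. Part of the 782 was therefore fixed in advance, and it is not a measure of robustness. When 1 array was left out, the number of members called was 0 to 1 in NCoR1-MKO, 2 to 4 in PGC-1alpha-mTg and 1 to 2 for the difference of effects, where Gabpb1 joined Tfam without replicate 5 of PGC-1alpha-mTg (-0.22, limma adjusted p = 0.03545). Tfam in PGC-1alpha-mTg and Tfb2m there passed the test under every alternative run (adjusted p up to 2.33e-05 and 0.003666), as did the difference of effects for Tfam (0.26 to 0.36, adjusted p up to 0.03576). Twnk in PGC-1alpha-mTg also missed the threshold with arrays centred (0.15, adjusted p = 0.05854) and in a fit of its 10 arrays alone (0.17, adjusted p = 0.0611), and the cause was not tested. Gabpb1 there passed it after quantile normalization (-0.14, adjusted p = 0.03753), without the dimmest 40% of genes, where fewer genes were tested (-0.15, adjusted p = 0.03799), and without replicate 1 of PGC-1alpha-mTg (-0.17, adjusted p = 0.04222). Small changes that turned sign in PGC-1alpha-mTg after quantile normalization were Polrmt (0.01), Polg (0.04) and Gabpa (0); without replicates 2 and 3 together Gabpa was 0.07, and the difference of effects for Polg was 0. With 1 array left out, Tfb1m ran from -0.01 to 0.08 and Polg from -0.04 to 0.01 in NCoR1-MKO. In PGC-1alpha-mTg Polg ran from -0.02 to 0.02 and Gabpa from -0.1 to 0.01. The differences of effects ran from -0.02 to 0.06 for Tfb1m, from -0.02 to 0.04 for Polg and from -0.03 to 0.03 for Nrf1. Over all genes 370 to 660 were called in NCoR1-MKO (525 in the fit reported) and 4304 to 6544 in PGC-1alpha-mTg (5575).

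Replicate numbers are shared between groups, but same-numbered arrays did not deviate together (correlations of -0.132 to 0.04 for NCoR1-MKO with CON and of -0.232 to 0.196 for PGC-1alpha-mTg with WT), and 2 of the arrays, replicates 1 and 4 of PGC-1alpha-mTg, matched their own number best. With the replicate number as a block the members called stayed at 1, 3 and 1, Tfam in NCoR1-MKO had an adjusted p of 0.04578, and 370 and 5318 genes were called in all. In NCoR1-MKO the block left 1 of 12 nucleotide supply genes, 0 of 26 RNA processing genes and 0 of 8 endothelial markers called higher, and 6 of 7 slow-fibre markers called lower. Counts in the lists around the members moved by 1 or 2 genes in NCoR1-MKO, where calls are few, for instance 0 to 2 higher among the upstream regulators with 1 array left out and 3 RNA processing genes after quantile normalization. In PGC-1alpha-mTg the replication and repair genes called lower were 1 without replicate 4 of PGC-1alpha-mTg or replicate 1 of WT. Polg2 is removed by the filter on dim genes, so no count of members exists there. The number of arrays and the low signal of Polg2 limit what small changes can be seen.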

Other observations

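Several of the 10 genes start head to head with another gene on the opposite strand, and these neighbours were read because a shared promoter region might carry both. Tfb2m and Cnst, which encodes consortin, start 253 bases apart and point away from each other (RefSeq, GRCm38.p6). In PGC-1alpha-mTg Cnst fell by 0.2 on the log2 scale while Tfb2m rose by 0.22. Cnst averaged 8.26 ± 0.0874 in PGC-1alpha-mTg and 8.46 ± 0.0362 in WT (SD, n = 5 each; limma adjusted p = 0.0006832). In NCoR1-MKO it changed by 0.01 ± 0.04 (limma adjusted p = 0.9838), and the difference of its effects was -0.21 (limma adjusted p = 0.01762).

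Twnk and Mrpl43, of the mitochondrial ribosome, start 116 bases apart for the second start of Twnk and overlap for the first. Mrpl43 averaged 8.68 ± 0.0362 in PGC-1alpha-mTg and 8.38 ± 0.0593 in WT (SD, n = 5 each), a rise of 0.3 ± 0.04 (limma adjusted p = 3.181e-06), in the same direction as the 0.17 of Twnk. Gabpa and Atp5j, of ATP synthase, start 148 bases apart at one start of Atp5j and overlap at another. Atp5j rose by 0.13 ± 0.03 in PGC-1alpha-mTg (limma adjusted p = 0.005464), where Gabpa stood at -0.04. In NCoR1-MKO neither Mrpl43 (0.02, limma adjusted p = 0.9345) nor Atp5j (0.07, limma adjusted p = 0.4153) was called. Of the measured neighbours in PGC-1alpha-mTg, Mrpl43 thus moved with its partner, and Cnst moved opposite to Tfb2m. The neighbours were chosen after the values of the members were seen, and whether the array probes of overlapping genes share sequence was not tested.

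Over the 10 genes, replicate 2 of PGC-1alpha-mTg was the lowest array of its group for 5 members, with a mean deviation of -0.071 from the group means, and replicate 5 deviated by 0.067. In the other groups the mean deviations lay between -0.048 and 0.042.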
